A study of Homo sapiens with 6 samples.

Results

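Described here are the liver miRNA hsa-miR-122-5p, the red cell miRNAs hsa-miR-486-5p and hsa-miR-451a and the leukocyte miRNA hsa-miR-142-5p, in exosomes of a skin cell line (the human prefix hsa is left out from here on). They were chosen by name among listed miRNAs, as textbook tissue markers that serum in a culture medium could bring. The choice was made with earlier results of these data known. They are 4 of the 161 known miRNAs listed in the deposited tables, which also list 115 predicted ones. The cells were HaCaT, an established human keratinocyte line, and the exosomes, small vesicles that cells release, were spun out of the culture medium. Small RNA was sequenced from 3 cultures left untreated and 3 given 0.4 mM hydrogen peroxide (H2O2), an oxidant. The labels give the genotype of all 6 as "With type" and name no transgene or deletion. The labels give 24, 25 and 26 h of H2O2 for replicates 1, 2 and 3, and the design text 24 h for the group, so time and replicate number cannot be told apart. The sources used here do not say whether the medium held serum.

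MicroRNAs are short RNAs that are cut from hairpin precursors and guide Argonaute proteins to messenger RNAs, mainly through the seed near the 5′ end. Several are made almost solely in 1 tissue, circulate in blood inside vesicles or bound to protein, and are used as blood markers of that tissue. Mature forms of such miRNAs are nearly the same across mammals, so a short read alone may not tell a human miRNA from that of another mammal. miR-122-5p is the dominant miRNA of hepatocytes, where it acts in lipid metabolism. miR-451a and miR-486-5p are abundant in red cells, miR-486-5p also in muscle, and miR-142-5p comes from a hairpin expressed throughout the blood cell lineages.

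RefSeq's miRNA table (GRCh38.p14) matched 2 of the 4, the liver and the leukocyte marker. Their mature sequences are shown so that the seeds can be compared, with the seed (bases 2 to 8) in capitals. The first lies at chr18:58451088-58451109 on the plus strand and the second at chr17:58331283-58331303 on the minus strand.
hsa-miR-122-5p: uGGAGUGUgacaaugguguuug
hsa-miR-142-5p: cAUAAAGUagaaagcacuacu
The seeds differ. Of 2370 mature miRNA names in that table, 0 others carry the miR-122-5p seed and 1 other, miR-5590-3p, carries that of miR-142-5p. No miRNA with either seed is among the other listed known ones (0), of which, members included, 136 of 161 had a sequence to compare.

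The hairpins below show where each mature strand (capitals) sits in its precursor, bases 15 to 36 of 85 in MIR122 and bases 16 to 36 of 87 in MIR142. Both counted strands are the 5′ arms, and the opposite arms, miR-122-3p and miR-142-3p, are not listed in the tables used here.
MIR122: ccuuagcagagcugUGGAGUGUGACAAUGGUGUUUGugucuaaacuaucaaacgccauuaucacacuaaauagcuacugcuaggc
MIR142: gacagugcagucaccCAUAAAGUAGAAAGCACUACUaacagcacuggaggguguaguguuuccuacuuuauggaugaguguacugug

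In GENCODE release 29 (GRCh38), MIR122 spans 58451074 to 58451158 on chromosome 18, within an exon of the long noncoding RNA MIR122HG. MIR142 spans 58331232 to 58331318 on chromosome 17, within an exon of the noncoding gene AC004687.1, and is antisense to an intron of TSPOAP1-AS1. MIR451A, at 28861369 to 28861440 on chromosome 17, lies within an exon of the long noncoding RNA AC024267.1 and 92 bases from MIR144, its partner in an erythroid cluster. Neither strand of miR-144 is listed in the tables used here. miR-486-5p has 2 annotated hairpins on opposite strands of chromosome 8, MIR486-1 (41660441 to 41660508) and MIR486-2 (41660444 to 41660507), in an intron of ANK1, the gene of a red cell membrane protein. Its counts cannot be divided between the pair. MIR122 and MIR451A also have an annotated hairpin on the opposite strand (MIR3591 and MIR451B). The sources used here do not give the build the authors mapped to, so these positions place the genes and not the reads.

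Library totals, recovered from the deposited counts, were 2449856 to 5405525 reads, and the listed known miRNAs made up 10.5% to 38.3% of them. miR-1246 alone took 27.4% of the total in H2O2 replicate 3 and 0.130% to 3.32% in the other 5 libraries. Levels are in CPM, counts per 1000000 reads of the library total, with exact Poisson 95% intervals that cover counting error only. CPM is a share of a library, so fewer vesicles that carry a miRNA, less of it per vesicle and more of other RNA cannot be told apart.

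Every listed row had been selected by the authors for a difference between the groups, with a p of at most 0.049 and an absolute log2 fold change of at least 1.03 in the authors' deposited table. That the members differed was thus fixed by their being listed. The tests below describe the size and spread of the differences in the same libraries that served for the selection. Sizes may therefore be too large and spreads too small, by an unknown amount. All 4 were lower in H2O2 exosomes, with fitted falls of 3.47-fold to 7.89-fold. In every one of them each H2O2 library was below each untreated library in CPM. That held for 75 of the 161 listed known rows (46.6%). Only the 82 listed as lower could meet it, since the other 79 are listed as higher. Groups did not overlap, in either direction, in 83.9% of the 161. All 4 passed the test of the counts (edgeR quasi-likelihood test, two-sided, Benjamini-Hochberg adjusted p under 0.05 over 186 tested rows), while 42.5% of all tested rows and 48% of the tested known rows were called lower, and 80.1% of all tested rows in either direction. Some of the 186 rows have fits identical to another row's, and each copy counted as a separate test in these shares and in the adjustment. Of the 66 tested known rows that the authors listed as lower, 61 were called lower. Without untreated replicate 2, 2 of the 4 passed, beside 30 lower calls among all 186 rows in place of 79. Without H2O2 replicate 3, 2 of the 4 passed, beside 41 lower calls in all. Without H2O2 replicate 1 only miR-486-5p passed (1), beside 12 lower calls in all. The median log2 fold change was -1.92 over the 4 members, beside -1.65 over the 66 tested known rows listed as lower. Over all tested rows it was 1.03, and with no filter on low counts -1.23. That median follows how many selected rows of each direction were tested and is no measure of a general rise. miR-142-5p entered the test only through the untreated group, since a row needed at least 5 counts in at least 3 libraries and none of its H2O2 libraries reached 5 (0 of 3).

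**Figure D1:**
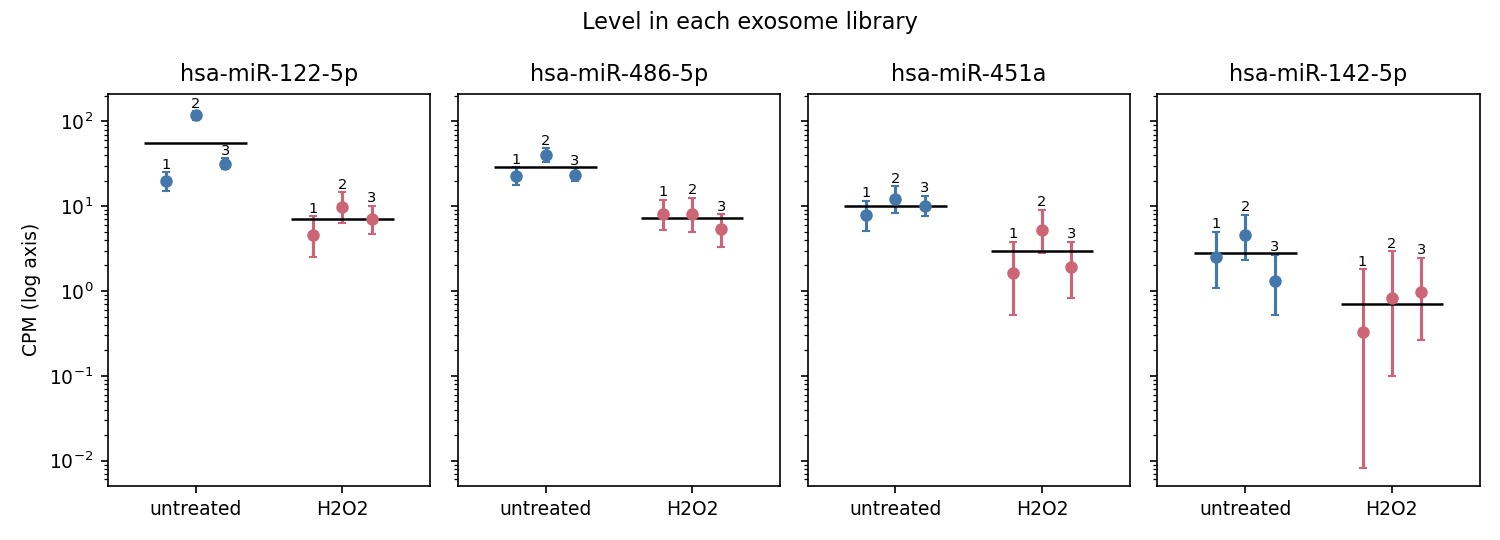
Points show the level of each miRNA in each library in CPM on a log axis, numbered by replicate, with exact Poisson 95% intervals, and black lines show group means. The 3 H2O2 libraries (red) lie below the 3 untreated ones (blue) for all 4 miRNAs, while the intervals of miR-142-5p are wide at 1 to 12 counts a library.

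miR-122-5p, the liver miRNA, was the most abundant of the 4 in untreated exosomes and had the largest fitted fall. Untreated replicates 1, 2 and 3 held it at 19.6, 118 and 31.8 CPM, from 62, 311 and 172 counts. In the H2O2 replicates, in the same order, it was at 4.55, 9.80 and 7.02 CPM, from 14, 24 and 29 counts. Untreated replicate 2 stood far above the rest, 6.0 times the lowest untreated library, and the lowest untreated library was 2.0 times the highest H2O2 library. Counting intervals were separate in 9 of 9 pairs of an untreated with an H2O2 library. Group means were 56.3 ± 53.4 CPM untreated and 7.12 ± 2.63 CPM with H2O2 (SD, n = 3 each). The log2 fold change was -2.98 ± 0.73 (SE; edgeR adjusted p = 0.0128), the most negative among the 127 tested known miRNAs. Its size rested on that library, since without untreated replicate 2 it was -1.86 ± 0.55 (edgeR adjusted p = 0.0383). Without H2O2 replicate 1 it no longer passed, at -2.74 (edgeR adjusted p = 0.05002).

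miR-486-5p, the miRNA of red cells and muscle, had the smallest SE of the 4. Its untreated levels were 22.8, 40.1 and 23.5 CPM, from 72, 106 and 127 counts. With H2O2 the 3 libraries were at 8.12, 8.16 and 5.32 CPM, from 25, 20 and 22 counts. The groups were well apart, as the lowest untreated library was 2.79 times the highest H2O2 library, and all 9 pairs of an untreated with an H2O2 library had separate counting intervals. Means were 28.8 ± 9.80 CPM and 7.20 ± 1.63 CPM (SD, n = 3 each). The fitted change on the log2 scale was -1.997 ± 0.49 (edgeR adjusted p = 0.0127). It passed whichever library was left out, with fold changes of -2.14 to -1.69 and edgeR adjusted p of at most 0.0463, when the 186 rows were kept. With the filter on low counts applied again to the 5 libraries left, it did not pass without H2O2 replicate 1 (edgeR adjusted p = 0.0565).

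miR-451a, the erythroid miRNA whose hairpin is known to be cut by AGO2 and not by Dicer, was at 7.90, 12.1 and 10.2 CPM in the untreated libraries, from 25, 32 and 55 counts. In the H2O2 libraries it was at 1.62, 5.31 and 1.94 CPM, from 5, 13 and 8 counts. The untreated libraries were close to each other, and H2O2 replicate 2 stood above the other H2O2 libraries, within 1.49 times of the lowest untreated one. Counting intervals were separate in 6 of 9 library pairs. Means were 10.1 ± 2.10 CPM and 2.96 ± 2.04 CPM (SD, n = 3 each). On the log2 scale miR-451a fell by 1.80 ± 0.59 (edgeR adjusted p = 0.0262). It no longer passed without untreated replicate 2, at -1.65 on the log2 scale (edgeR adjusted p = 0.0625), without H2O2 replicate 1, at -1.51 (0.0889), or without H2O2 replicate 3, at -1.55 (0.0685). Without H2O2 replicate 2 the fall was larger, at -2.47 (edgeR adjusted p = 0.0134).

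miR-142-5p, the leukocyte miRNA, was near the limit of detection. Untreated levels were 2.53, 4.54 and 1.29 CPM, from 8, 12 and 7 counts. H2O2 levels were 0.325, 0.816 and 0.968 CPM, from 1, 2 and 4 counts, where 3 counts correspond to 0.726 to 1.22 CPM. Untreated replicate 3 and H2O2 replicate 3 were close, at 7 and 4 counts of unequal totals, and counting intervals were separate in 1 of 9 library pairs. Means were 2.79 ± 1.64 CPM and 0.703 ± 0.336 CPM (SD, n = 3 each). The log2 difference from the fit was -1.85 ± 0.72 (edgeR adjusted p = 0.0417). Only its untreated libraries reached the 5 counts needed for testing, so its entry favoured a fall and this p is no support for one. miR-142-5p passed without untreated replicate 3 (edgeR adjusted p = 0.0271). It did not pass in the 5 other runs that left out a library, with edgeR adjusted p of 0.0619 to 0.154. In those 5 runs the log2 fold change ran from -2.21 without H2O2 replicate 3 to -1.33 without untreated replicate 2.

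The adjustment for multiple tests covers the listed rows alone. Adjusted as if 2000 miRNAs had been tested, none of the 4 passed (0; edgeR adjusted p of 0.137 for miR-486-5p, 0.138 for miR-122-5p, 0.282 for miR-451a and 0.449 for miR-142-5p), and 0% of the tested rows were called lower. Their unadjusted edgeR p were 0.00243, 0.00255, 0.0132 and 0.0301 in that order. In the authors' deposited table the log2 fold changes were -1.82 for miR-486-5p, -2.78 for miR-122-5p, -1.66 for miR-451a and -1.66 for miR-142-5p. These were smaller in size than the edgeR values for all 4, and the sources used here do not give the scaling behind them.

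**Figure D2:**
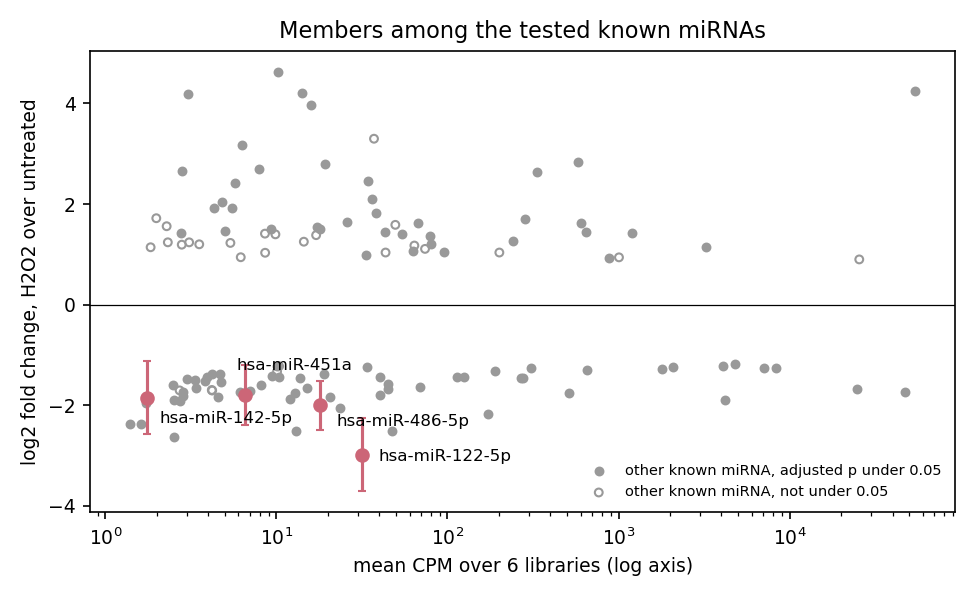
Each point is 1 of the 127 tested known miRNAs, with mean CPM over the 6 libraries on a log axis against the edgeR log2 fold change. The 4 members (red, bars are SE) lie among the listed falls, miR-122-5p lowest at -2.98, and the empty band around 0 is left by the authors' selection.

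By mean level in untreated exosomes, miR-122-5p came first, then miR-486-5p, then miR-451a and last miR-142-5p. The first pair of neighbours overlapped, with miR-122-5p above miR-486-5p in 2 of 3 libraries, while the other neighbours did not overlap. In H2O2 exosomes miR-486-5p and miR-122-5p were level at 7.20 and 7.12 CPM, miR-122-5p overlapped miR-451a, and miR-451a was above miR-142-5p in all 3 libraries with ranges apart. Among the 161 listed known miRNAs, ranked by mean CPM, miR-122-5p was at place 39 untreated and 83 with H2O2. In the same order miR-486-5p was at 50 and 81, miR-451a at 72 and 105, and miR-142-5p at 105 and 140. The ranked rows were selected for a difference, 79 listed as higher and 82 as lower. A row listed as lower thus tends to lose places by selection alone, and unlisted miRNAs have no place.

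Summed over the 4, the libraries held 52.8, 174 and 66.8 CPM untreated and 14.6, 24.1 and 15.2 CPM with H2O2. These sums rest on 989 and 167 counts per group. The mean sum was 98.0 ± 66.5 CPM untreated and 18.0 ± 5.29 CPM with H2O2 (SD, n = 3 each). Untreated replicate 2 was the highest untreated library for each of the 4 members. The same library was highest for 37 of the 82 known miRNAs listed as lower (45.1%). In the H2O2 group replicate 2 was highest for 3 of the 4, as for 37.8% of those 82, and replicate 3 for miR-142-5p, as for 34.1%. What distinguished untreated replicate 2 was not tested.

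**Figure D3:**
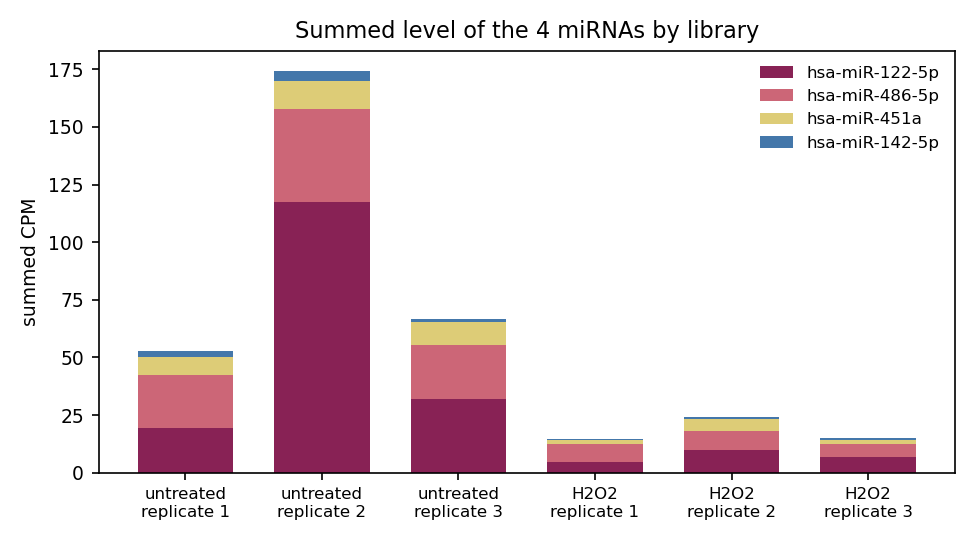
Bars show the summed CPM of the 4 miRNAs in each library, from 0, divided by miRNA. Untreated replicate 2 reached 174 CPM, of which miR-122-5p was 67.5%, and the 3 H2O2 libraries were between 14.6 and 24.1 CPM.

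Ratios between members within a library do not depend on its total, and they were compared for all 6 pairs to see whether the 4 fell by unequal amounts. No pair differed beyond the spread between libraries, with exact two-sided permutation p of 0.3 to 0.9 and 0.9 for every pair after Benjamini-Hochberg adjustment. With 3 against 3 libraries the smallest p possible is 0.1, and the groups overlapped in all 6 pairs. With 5 in place of 0.5 added to each count, the log2 difference of miR-122-5p over miR-142-5p went from -0.92 to -1.61 and that of miR-486-5p over miR-142-5p from -0.28 to -0.996. Both then reached that smallest exact permutation p of 0.1 (0.3 after adjustment). The added 5 exceeds every H2O2 count of miR-142-5p (1, 2 and 4) and so flattens the fall of that member. The larger differences thus do not show unequal falls. The smallest difference was between the red cell markers. The log2 ratio of miR-486-5p to miR-451a (counts plus 0.5) was 1.51, 1.71 and 1.1999 in the untreated libraries in replicate order, and 2.21, 0.60 and 1.40 in the H2O2 libraries. Its mean was 1.47 ± 0.26 untreated and 1.41 ± 0.81 with H2O2 (SD, n = 3 each). The log2 ratio of miR-122-5p to miR-486-5p was -0.21, 1.55 and 0.44 untreated and -0.81, 0.26 and 0.39 with H2O2. Its mean went from 0.59 ± 0.89 to -0.06 ± 0.66 (SD, n = 3 each), with untreated replicate 2 above all other libraries. A p that misses the threshold at this size does not show that the 4 fell equally.

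Other markers of the same tissues were looked for by name, and the wording below covers only rows in the tables used here. Of 4 red cell strands, 2 are listed, both of them members. Of 5 leukocyte strands 1 is listed, of 5 liver strands 1, and of 2 platelet and endothelium strands none (0). Of 10 keratinocyte strands, among them miR-203a-3p and miR-205-5p, none is listed (0), so the keratinocyte label cannot be checked on them here. With either strand counted, 2 of these 10 hairpins have a listed strand, miR-31-3p and miR-205-3p. The minor strand miR-205-3p was at 26.9, 70.0 and 15.9 CPM untreated and at 3.25, 20.4 and 3.87 CPM with H2O2. Its groups overlapped, and it fell by 2.05 ± 0.83 on the log2 scale (edgeR adjusted p = 0.0462), a size within the range of the 4 members. The minor strand miR-31-3p rose by 2.64 ± 0.63 on that scale (edgeR adjusted p = 0.0119). Of 16 other blood and liver hairpins 2 have a listed strand. The minor strand miR-16-2-3p was at 825, 1120 and 444 CPM untreated and at 226, 422 and 61.5 CPM with H2O2. It fell by 1.75 ± 0.65 on the log2 scale (edgeR adjusted p = 0.0352). In every library it stood far above all 4 members. Its place among these hairpins does not show that it came from blood or liver. The minor strand miR-192-3p had 0, 0 and 1 counts untreated and 3, 4 and 1 counts with H2O2, below the filter. The 115 predicted miRNAs include none named after a miR-122, miR-142, miR-451 or miR-486 family of any species (0), and 10 of them carry the name of a cattle miRNA. Of those 10, 7 are listed as higher with H2O2, 6 of them entries for miR-2327 with identical counts, and the 3 listed as lower were below the filter. Other predicted rows are named after fly or chicken miRNAs, among others, so such a name does not tell which species a read came from. The part of serum in any value above was not tested.

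The known miRNAs whose profile over the 6 libraries was most like each member were found among 75 that were tested and had a mean of at least 10 CPM. Likeness was the root mean square distance between centred log2(CPM + 1) profiles. Nearest to miR-122-5p were miR-27a-5p at 0.57 and miR-548e-3p at 0.61, where the median candidate was at 1.90. The candidates had been selected for a difference in either direction. Rows listed as higher are far from a falling member for that reason, which raises that median. Nearest to miR-486-5p were miR-125b-1-3p at 0.19 and miR-597-3p at 0.20. miR-125b-1-3p was at 86.3, 131 and 94.9 CPM untreated and 36.0, 33.9 and 30.3 CPM with H2O2, the same order of untreated libraries but a level above that of miR-486-5p. Nearest to miR-451a were miR-1269b and miR-454-5p, both at 0.35, and nearest to miR-142-5p were miR-548ay-5p and miR-10399-5p, both at 0.35. Among the members, miR-486-5p and miR-451a were closest to each other at 0.41, and miR-122-5p and miR-142-5p farthest apart at 0.90. For each member at least 2 miRNAs outside the 4 were nearer to it than any other member was. Those were the best of 75 candidates while the members are few, so this does not show whether the 4 form a group. The 1 added to CPM also flattens the profiles of members at low levels, miR-142-5p most.

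**Figure D4:**
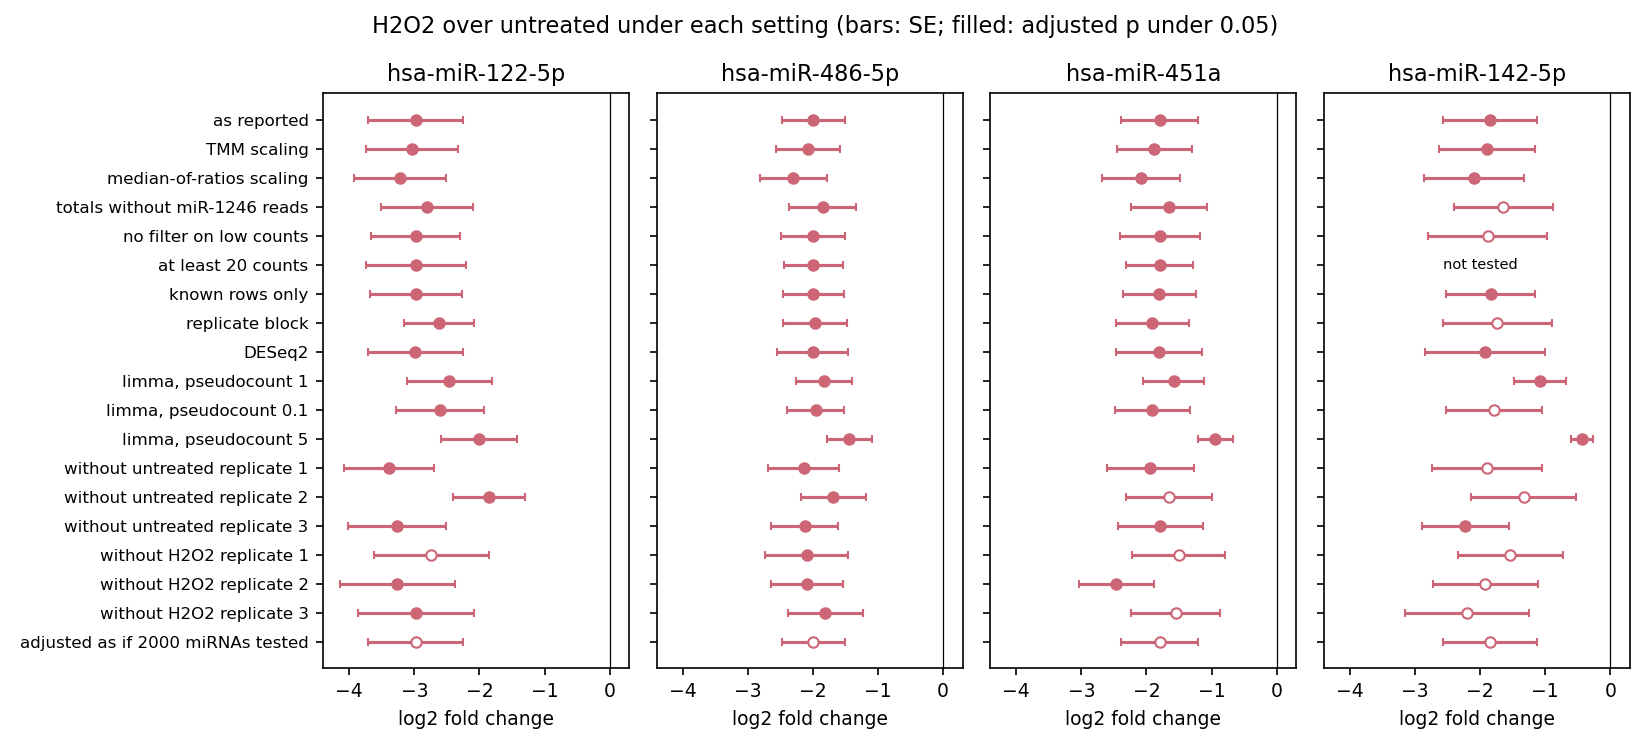
Points show the log2 fold change of each miRNA, H2O2 over untreated, under the settings named on the vertical axis, with SE bars, filled where the adjusted p was under 0.05. All values are negative, miR-122-5p moves most when untreated replicate 2 is left out (-1.86), and miR-142-5p is the member with the most open points.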

How the data were processed

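Small RNA libraries of HaCaT exosomes were made with a NEBNext kit, per the labels' protocols. Bowtie 1.1.1, cutadapt, FastQC and bcl2fastq are named in the submitters' processing notes, with no role or order. The authors deposited raw counts, CPM values, a log2 fold change, its linear fold (ratio) and an unadjusted p-value per miRNA, per the file headers. Counts divided by CPM gave the same library total in all 4 tables.

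Known and predicted rows were fitted together with edgeR 4.0.16 in R 4.3.3 (two-sided quasi-likelihood test, library totals as offsets, no composition factor). Rows needed at least 5 counts in at least 3 libraries, and the threshold was a Benjamini-Hochberg adjusted p of 0.05. Only rows the authors had selected were at hand, so adjusted p are too small, and fold changes may be too large, by an unknown amount. SE is the fold change over the root of F. The fit was tested on simulated data in which most rows were unchanged. The selected rows used here differ from that setting, so that test does not vouch for the p reported. The labels call the replicates biological. Alternatives used DESeq2 1.42.0 and limma 3.58.1 among others. Those chosen after seeing the data were the adjustment to 2000 miRNAs, re-applying the filter, and leaving libraries out of the ratios. The keratinocyte hairpins were searched by either strand only after values were seen. Members and lists were chosen with earlier results of these data known. The miRNAs named are the members, listed strands sharing their hairpin or seed, the listed strands of the 16 other and 10 keratinocyte hairpins, the 2 nearest profiles per member, and miR-1246.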

Additional observations from a re-analysis of the deposited data

How the results depend on the processing

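All 4 falls kept their direction under every setting that tested them. With a library left out this was fixed in advance, since each H2O2 library was below each untreated one in CPM. Apart from left-out libraries, miR-486-5p, miR-122-5p and miR-451a lost their calls only under the adjustment to 2000 miRNAs, at unchanged log2 fold changes of -1.997, -2.98 and -1.80, when 0 of the 4 passed (4 had an unadjusted edgeR p under 0.05). miR-142-5p (-1.85) lost its call there too, with totals without miR-1246 reads (-1.64), with no filter (-1.88), with the replicate block (-1.73) and with limma at a pseudocount of 0.1 (-1.78). With at least 20 counts it was not tested. The number of members called was 1 to 4 with a library left out (1 without H2O2 replicate 1) and 0 to 3 with the filter re-applied, beside 12 to 61 and 4 to 51 lower calls over all tested miRNAs. At that 0, without H2O2 replicate 1, 2 had an unadjusted edgeR p under 0.05. With the filter re-applied, calls were lost by miR-122-5p (-2.74) and miR-486-5p (-2.10) without H2O2 replicate 1, by miR-451a without untreated replicate 2 (-1.65) and without H2O2 replicate 1 (-1.51) or 3 (-1.55), and by miR-142-5p without H2O2 replicate 1 (-1.53), 2 (-1.92) or 3 (-2.20). miR-142-5p was not tested there without an untreated library. Leaving out a library gave -3.39 to -1.86 for miR-122-5p, -2.14 to -1.69 for miR-486-5p, -2.47 to -1.51 for miR-451a and -2.23 to -1.33 for miR-142-5p. At a pseudocount of 5 CPM, limma gave -0.94 for miR-451a and -0.43 for miR-142-5p. That pseudocount is above every level of miR-142-5p (at most 4.54 CPM) and the H2O2 mean of miR-451a (2.96 CPM), which shrinks both falls. Median-of-ratios scaling moved the median of all tested rows by -0.29 and totals without miR-1246 reads by 0.15, with 60 lower and 80 higher calls against 79 and 70.

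Deviations of same-numbered libraries correlated at 0.20, 0.08 and 0.23, and 5 of 6 libraries correlated best with their own number. Whether replicate numbers mark pairs was not settled. With the replicate block 3 members passed. Of 6 differences between members, 3 changed sign with a library left out, and the 3 of miR-122-5p stayed negative. That of miR-486-5p and miR-451a ran from -0.47 to 0.34, that of miR-486-5p and miR-142-5p from -0.74 to 0.14, and that of miR-451a and miR-142-5p from -0.55 to 0.26. None of these passed in any run (0), and none could. The smallest exact permutation p possible is 0.1 with all libraries and larger with a library left out. The cause was not tested for any of these changes. Depth limits miR-142-5p most, at 27 and 7 counts per group.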
